A study of Mus musculus with 4 samples.

Results

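Alcohol dehydrogenases, aldehyde dehydrogenases and aldo-keto reductases are described here in mouse liver after acetaminophen. The members are the protein-coding rows of the deposited gene table whose symbols begin with Adh, Aldh or Akr followed by a digit, leaving out Akr1d1. They number 43 of 54149 rows (22058 of them protein-coding): 6 alcohol dehydrogenases, 21 aldehyde dehydrogenases and 16 aldo-keto reductases. Livers came from adult female mice on a mixed C57BL/6 x 129S4/SvJae background. One group was wild-type (WT) and the other was a liver-specific Utx knockout. Utx, listed as Kdm6a, is a histone demethylase acting on methylated lysine 27 of H3. Mice of both groups were fasted for 16 h and were then injected intraperitoneally with 300 mg/kg acetaminophen, so no group shows the liver without the drug. Each group has 2 RNA-seq libraries, and each library is a pool of liver RNA from 2 mice. The sources used here give neither the time of tissue collection nor the construct behind the deletion.

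These enzymes share substrates. Alcohol dehydrogenases oxidise alcohols, among them ethanol and retinol, to aldehydes with NAD as acceptor. Aldehyde dehydrogenases carry aldehydes on to acids, which removes acetaldehyde and products of lipid peroxidation and also completes steps of retinoic acid synthesis, one-carbon metabolism and amino acid breakdown. Aldo-keto reductases run in the other direction with NADPH, reducing aldehydes, ketones and steroids to alcohols. The liver is a main site of all 3 families, mostly in hepatocytes.

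Values are in FPKM (fragments scaled to the length of the gene and the size of the library), and rest on 16330451 to 17804730 reads per library. Fold changes are knockout against WT on the scale log2(FPKM + 0.5), which understates changes of low genes, and a gene is called when its limma p-value, adjusted by the Benjamini-Hochberg method over 11900 tested genes, is under 0.05. With 2 pools a group, p-values measure the spread between pools. Kdm6a measured 3.40 and 3.85 FPKM in WT and 2.20 and 2.12 FPKM in knockout pools (limma adjusted p = 0.0715), so its transcript was below WT but still present in both knockout pools. A value per gene does not resolve a deleted exon. Kdm6b, the related demethylase, was at 19.1 and 19.5 FPKM in WT and fell to 5.10 and 6.47 FPKM (limma adjusted p = 0.0258). Over all genes 190 were called higher and 374 lower, a split that became 211 and 255 after rescaling to the reads listed in each library. Of 7 hepatocyte markers 0 were called by limma, with a median log2 fold change of 0.06. Neutrophil markers summed to 120.0 and 183 FPKM in WT and to 39.5 and 34.9 FPKM in knockout pools, with 4 of 8 tested members lower. Cholangiocyte markers summed to 264 and 102 FPKM in WT and to 39.03 and 17.7 FPKM in knockout pools, with 1 of 3 tested members lower. No marker of these lists was at 0 in all libraries. The part of these cell types in the results below was not tested, and in bulk liver RNA fewer cells of a type cannot be told apart from less RNA per cell.

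Of the 43 members, 32 had a mean of at least 1 FPKM and were tested. In the knockout 5 of the 32 rose: Adh4, Aldh1b1, Akr1c14, Akr1c20 and Akr1e1. Over all tested genes 4.74% were called, 1.60% higher and 3.14% lower. By limma 0 members were called lower. At an unadjusted limma p under 0.05, 14 members were above WT and 3 below. Of all 11900 tested genes, 1507 were above and 1719 below WT at that threshold. With limma voom on recovered reads 9 members were called higher and 2 lower, against 440 and 469 of all genes. The median log2 fold change of the 32 was 0.40, against 0.01 over all tested genes. Both knockout pools lay above both WT pools for 20 members, which is 62.5% of those tested, against 31.6% of all tested genes. Both lay below for 6 members, or 18.8%, against 29.9% of all genes. The remaining 6 overlapped. The number of rises was 0 without WT replicate 1, without WT replicate 2 and without knockout replicate 1, and 1 without knockout replicate 2. In these settings 0 to 51 of all genes were called higher.

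**Figure D1:**
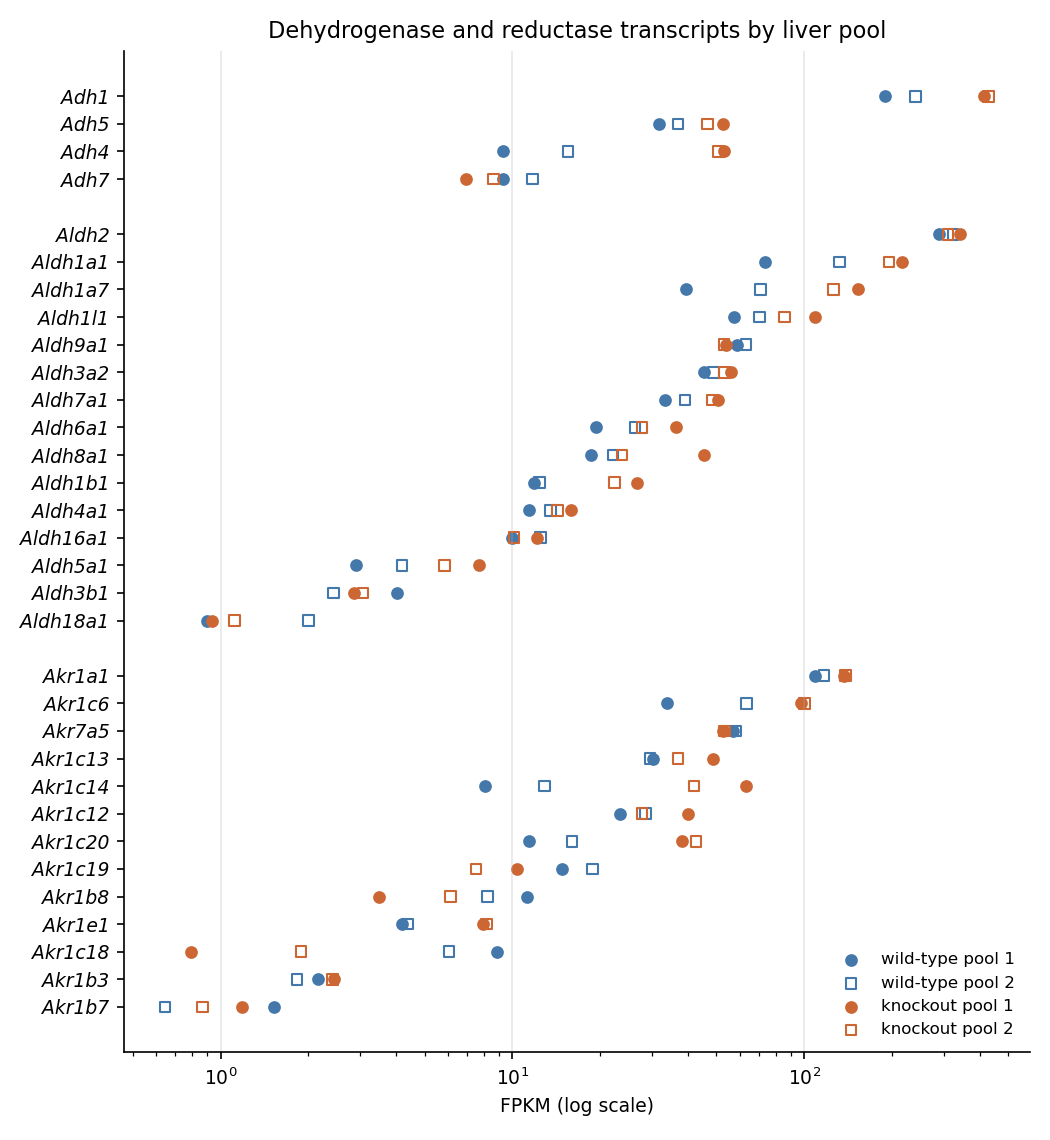
FPKM of the 32 tested members in each of the 4 liver pools, on a log axis, with families separated and members ordered by mean level. Circles are replicate 1 and squares are replicate 2 of WT (blue) and knockout (orange). For 20 members both orange points lie to the right of both blue points, and for 6 both lie to the left.

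Summed over its members, each family stood higher in both knockout pools. The 6 alcohol dehydrogenases summed to 240.0 and 304.5 FPKM in WT and to 524 and 534 FPKM in knockout pools, a mean 1.94 times higher. The 21 aldehyde dehydrogenases summed to 676 and 843 FPKM in WT and to 1129.6 and 981 FPKM in knockout pools, 1.39 times higher. Within this sum Aldh1a1 and Aldh1a7, neither of them called, together made 113 and 203 FPKM in WT and 370.1 and 321 FPKM in knockout pools. The 16 aldo-keto reductases summed to 315 and 366 FPKM in WT and to 504 and 469 FPKM in knockout pools, 1.43 times higher. In none of the 3 families did the groups overlap. Among single genes, both knockout pools lay above both WT pools for 31.6% of all tested genes. The members together took 0.465% and 0.527% of the reads in WT and 0.756% and 0.717% in knockout pools. A single value compared between 2 and 2 pools cannot reach a two-sided p below 0.333 in an exact permutation test, so the sums are given as values.

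**Figure D2:**
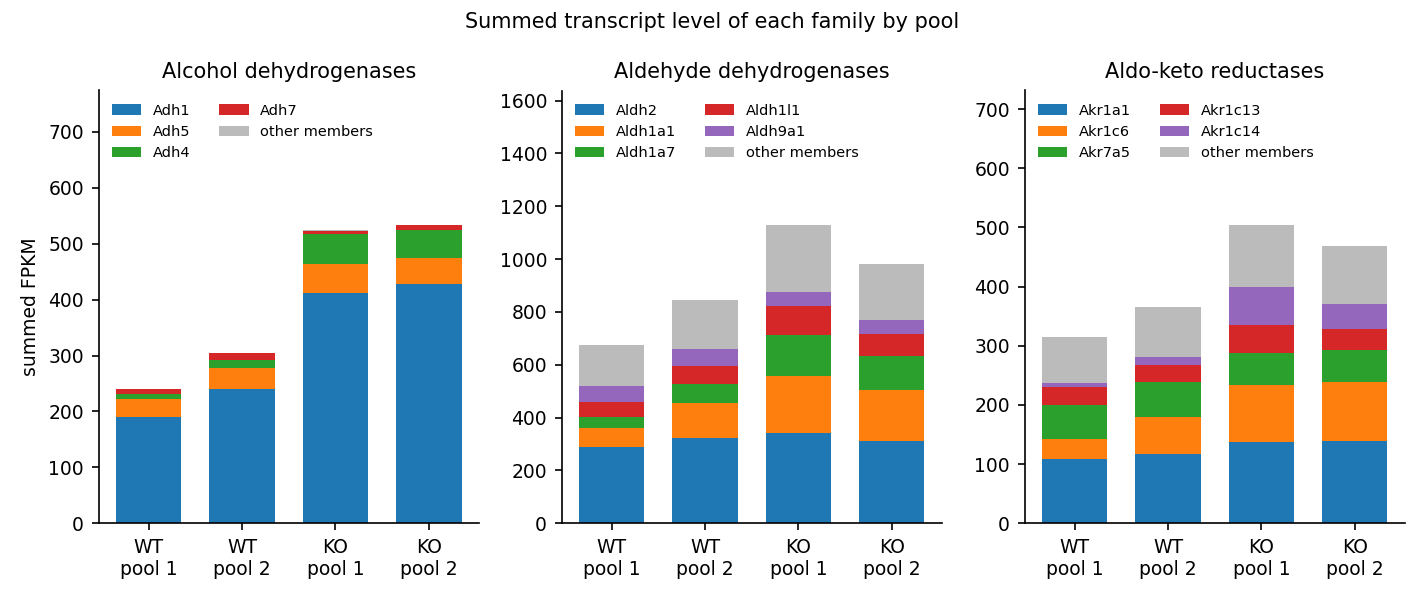
Summed FPKM of the alcohol dehydrogenases, aldehyde dehydrogenases and aldo-keto reductases in each pool, stacked by the most abundant members with the rest in grey. Adh1 fills most of the alcohol dehydrogenase bar in every pool (78.5% to 80.1%), and Aldh2 keeps a near level height while the rest of its bar differs.

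Among the alcohol dehydrogenases Adh4 rose. Adh4 encodes an enzyme that acts on larger alcohols and retinol, and its activity was not measured here. Adh4 measured 9.30 and 15.5 FPKM in WT against 53.04 and 50.8 FPKM in knockout pools, from 228, 353, 1371 and 1263 reads. The knockout pools were close together and both far above WT. WT averaged 12.4 ± 4.37 FPKM and the knockout 51.9 ± 1.58 FPKM (mean ± SD throughout, n = 2 pools), a difference of 2.07 on the log2 scale (SE 0.25, 95% confidence interval 1.40 to 2.73, limma adjusted p = 0.0350). Leaving out 1 pool at a time gave 1.71 to 2.42, with limma adjusted p between 0.0561 (without WT replicate 1) and 0.0953 (without knockout replicate 1), so the call was lost without any one of the 4 pools.

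Adh1 is the main ethanol and retinol oxidising enzyme of the liver and was the most abundant member of all, ranking at position 140 among protein-coding genes by mean FPKM. It was at 189.7 and 240.2 FPKM in WT and at 411 and 428 FPKM in knockout pools. Both knockout pools were above both WT pools, and the log2 difference was 0.97 (SE 0.17), but Adh1 fell short of the threshold (limma adjusted p = 0.0528). It passed in 5 of 16 alternative analyses, among them a test restricted to protein-coding genes (limma adjusted p = 0.0341) and limma voom on recovered reads (0.0227); over all of them the adjusted p ran from 0.0227 to 0.176. Adh5, which oxidises the glutathione adduct of formaldehyde and reduces S-nitrosoglutathione, was at 31.7 and 36.9 FPKM in WT and at 52.6 and 46.5 FPKM in knockout pools (log2 fold change 0.53, limma adjusted p = 0.0990). Adh5 passed with limma voom on recovered reads alone (adjusted p = 0.0483). Adh1 held 78.9% to 79.04% of the family's summed FPKM in WT and 78.5% to 80.1% in knockout pools. Adh4 held 3.87% and 5.08% in WT and 10.1% and 9.52% in knockout pools. The ratio of Adh4 to Adh5 was 0.293 and 0.419 in WT and 1.01 and 1.09 in knockout pools, so the lesser of these enzymes in WT was level with the other in the knockout.

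Adh7, a retinol-active enzyme best known from the stomach, was the tested alcohol dehydrogenase below WT, at 9.26 and 11.7 FPKM in WT and 6.93 and 8.61 FPKM in knockout pools (log2 fold change -0.41, limma adjusted p = 0.219). Adh7 lies opposite the antisense gene 0610031O16Rik, which was listed at 25.0 and 25.2 FPKM in WT and at 20.5 and 22.6 FPKM in knockout pools. Strand marking is not stated for these libraries, so reads of Adh7 and of its antisense neighbour cannot be told apart. Adh6b had 2 to 13 reads per library. Adh6a had 0 reads in all 4 libraries, which allows at most 0.0662 to 0.0751 FPKM per library when 3 reads are taken as the upper limit of a count of 0, for counting error only.

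The alcohol dehydrogenase genes form a single cluster on chromosome 3 of GRCm38 (138217760 to 138455499, 238 kb), and all 6 lie on the plus strand. In chromosomal order they are Adh7, Adh1, Adh6a, Adh6b, Adh4 and Adh5. The log2 fold changes of the 4 tested members, in that order, were -0.41, 0.97, 2.07 and 0.53. Their coding sequences are well separated: identity between any 2 of Adh1, Adh4, Adh5 and Adh7 was 63.4% to 69.1% of aligned bases in GENCODE M21 transcripts, and the longest exact run shared by Adh1 and Adh4 was 12 bases. Adh4 (ENSMUSG00000037797) spans 138415466 to 138430892.

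**Figure D3:**
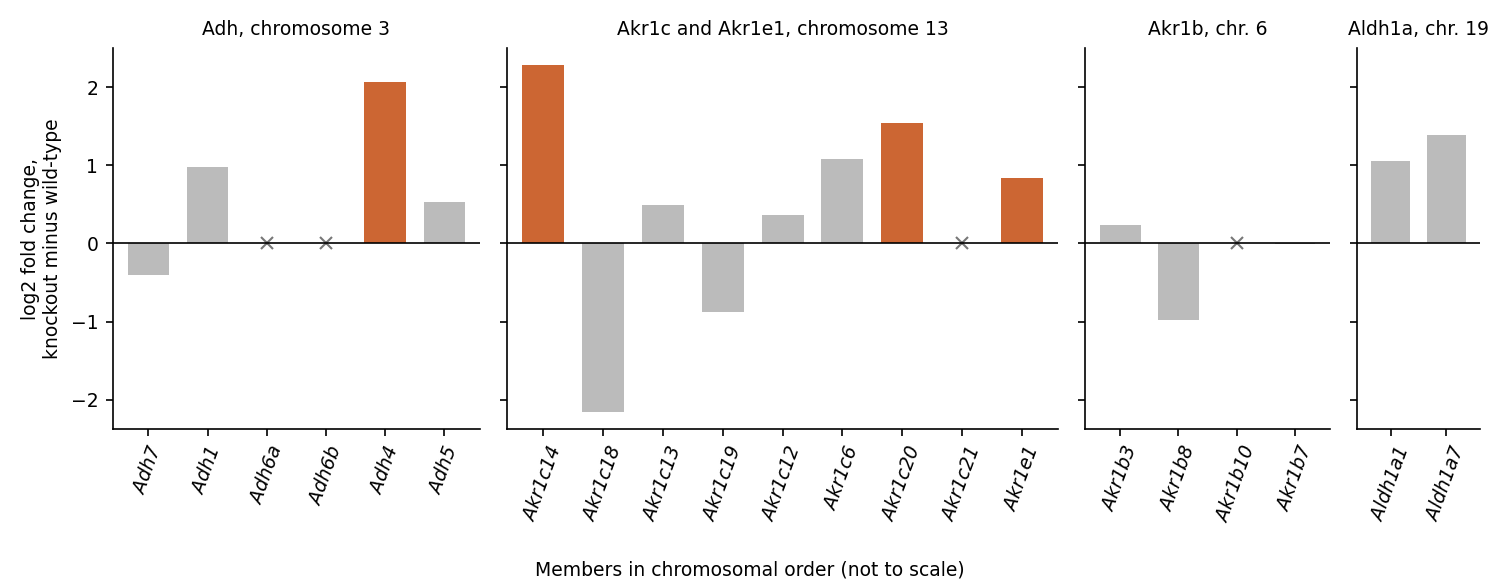
Log2 fold change (knockout minus WT) of the members in each of 4 gene clusters, in chromosomal order. Orange bars passed the limma test, grey bars did not, and a cross at 0 marks a member below the expression filter; Akr1b7 is a bar of -0.01. Adh4, Akr1c14, Akr1c20 and Akr1e1 are the called members, and Akr1c18 beside Akr1c14 points the other way.

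Of the 15 tested aldehyde dehydrogenases, Aldh1b1 rose. It encodes a mitochondrial enzyme that oxidises acetaldehyde and retinaldehyde, and lies on chromosome 4 (ENSMUSG00000035561, 45799022 to 45804604, plus strand). Its level was 11.9 and 12.4 FPKM in WT and 26.7 and 22.3 FPKM in knockout pools, from 461, 448, 1094 and 880 reads. The WT pools were nearly alike, and both knockout pools were above them. WT averaged 12.1 ± 0.377 FPKM and the knockout 24.5 ± 3.09 FPKM, which is 0.98 on the log2 scale (SE 0.13, 95% confidence interval 0.64 to 1.32, limma adjusted p = 0.0375). Leaving out 1 pool at a time gave 0.85 to 1.11, with the call lost each time at limma adjusted p from 0.0570 (without knockout replicate 2) to 0.123 (without knockout replicate 1). Aldh1b1 was also placed on the periportal hepatocyte list, of which 2 of 10 members, Aldh1b1 itself among them, were called higher and 1 lower. Of 8 tested pericentral hepatocyte markers 1 was called higher and 0 lower. Over all tested genes 1.60% were called higher and 3.14% lower. The summed FPKM of either list overlapped between the groups.

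Aldh2, the main mitochondrial acetaldehyde dehydrogenase, was at 288 and 323 FPKM in WT and at 342 and 311 FPKM in knockout pools. The groups overlapped, with a log2 fold change of 0.10 (95% confidence interval -0.28 to 0.47, limma adjusted p = 0.699). The interval excludes a change of the size measured for Aldh1b1. The ratio of Aldh1b1 to Aldh2 was 0.0412 and 0.0384 in WT and 0.0781 and 0.0719 in knockout pools, so Aldh1b1 remained the minor mitochondrial form by level. Aldh2 made up 42.6% and 38.3% of the family's summed FPKM in WT and 30.3% and 31.7% in knockout pools.

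The cytosolic retinaldehyde dehydrogenase Aldh1a1 and its close paralog Aldh1a7 were next in level and stood higher in both knockout pools without passing the test. Aldh1a1 was at 73.4 and 132 FPKM in WT and at 217 and 195 FPKM in knockout pools (log2 fold change 1.06, limma adjusted p = 0.116). Aldh1a7 was at 39.4 and 70.6 FPKM in WT and at 153 and 126 FPKM in knockout pools (log2 fold change 1.39, limma adjusted p = 0.0780). The spread between the WT pools was wide for both, with WT replicate 1 the lowest library each time. Without WT replicate 1 the log2 fold changes were 0.64 for Aldh1a1 and 0.97 for Aldh1a7, and without WT replicate 2 they were 1.48 and 1.81. The genes lie side by side on chromosome 19 and share 91.6% of their coding bases, with an exact run of 100 bases, so reads could be assigned to the wrong one of the pair. Their sum was 113 and 203 FPKM in WT and 370.1 and 321 FPKM in knockout pools, a mean 2.19 times higher. The ratio of Aldh1a7 to Aldh1a1 was 0.536 and 0.535 in WT and 0.707 and 0.646 in knockout pools. The other Aldh1a members, Aldh1a2 and Aldh1a3, stayed at or below 0.220 FPKM in every library.

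Aldehyde dehydrogenases of one-carbon and amino acid metabolism mostly lay above WT by less. Aldh1l1, which oxidises formyltetrahydrofolate, was at 57.4 and 70.1 FPKM in WT and at 109 and 85.4 FPKM in knockout pools (log2 fold change 0.60, limma adjusted p = 0.127). Aldh7a1, which acts in lysine breakdown, was at 33.4 and 39.02 FPKM in WT and at 50.4 and 48.4 FPKM in knockout pools (log2 fold change 0.45, limma adjusted p = 0.112). Aldh5a1, the succinic semialdehyde dehydrogenase, was at 2.92 and 4.18 FPKM in WT and at 7.67 and 5.85 FPKM in knockout pools (log2 fold change 0.85, limma adjusted p = 0.0986). In these 3 genes, and in Aldh6a1, Aldh4a1 and Aldh8a1 named next, both knockout pools lay above both WT pools. The same held for 31.6% of all tested genes. Aldh5a1 passed with limma voom on recovered reads. Aldh6a1, of valine breakdown, and Aldh4a1, of proline breakdown, had log2 fold changes of 0.48 and 0.27 without passing. Aldh8a1, of tryptophan breakdown, was at 18.6 and 22.1 FPKM in WT and at 45.2 and 23.7 FPKM in knockout pools, so its log2 fold change of 0.68 came mainly from knockout replicate 1.

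Aldehyde dehydrogenases that act on fatty aldehydes and carnitine precursors differed little. Aldh3a2, the fatty aldehyde dehydrogenase, was at 45.4 and 48.8 FPKM in WT and at 56.2 and 53.4 FPKM in knockout pools (log2 fold change 0.22, 95% confidence interval -0.07 to 0.50). Aldh9a1, which serves carnitine synthesis, was at 58.9 and 63.1 FPKM in WT and at 54.01 and 53.1 FPKM in knockout pools, and was the tested aldehyde dehydrogenase with both knockout pools below WT (log2 fold change -0.19, 95% confidence interval -0.47 to 0.10). Aldh16a1, Aldh3b1 and Aldh18a1 had log2 fold changes of -0.01, -0.07 and -0.30, and their groups overlapped. Aldh3a1, known for its strong induction through the aryl hydrocarbon receptor, had 0 to 2 reads per library. Aldh3b2, Aldh3b3 and Aldh1l2 also stayed below the filter.

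**Figure D4:**
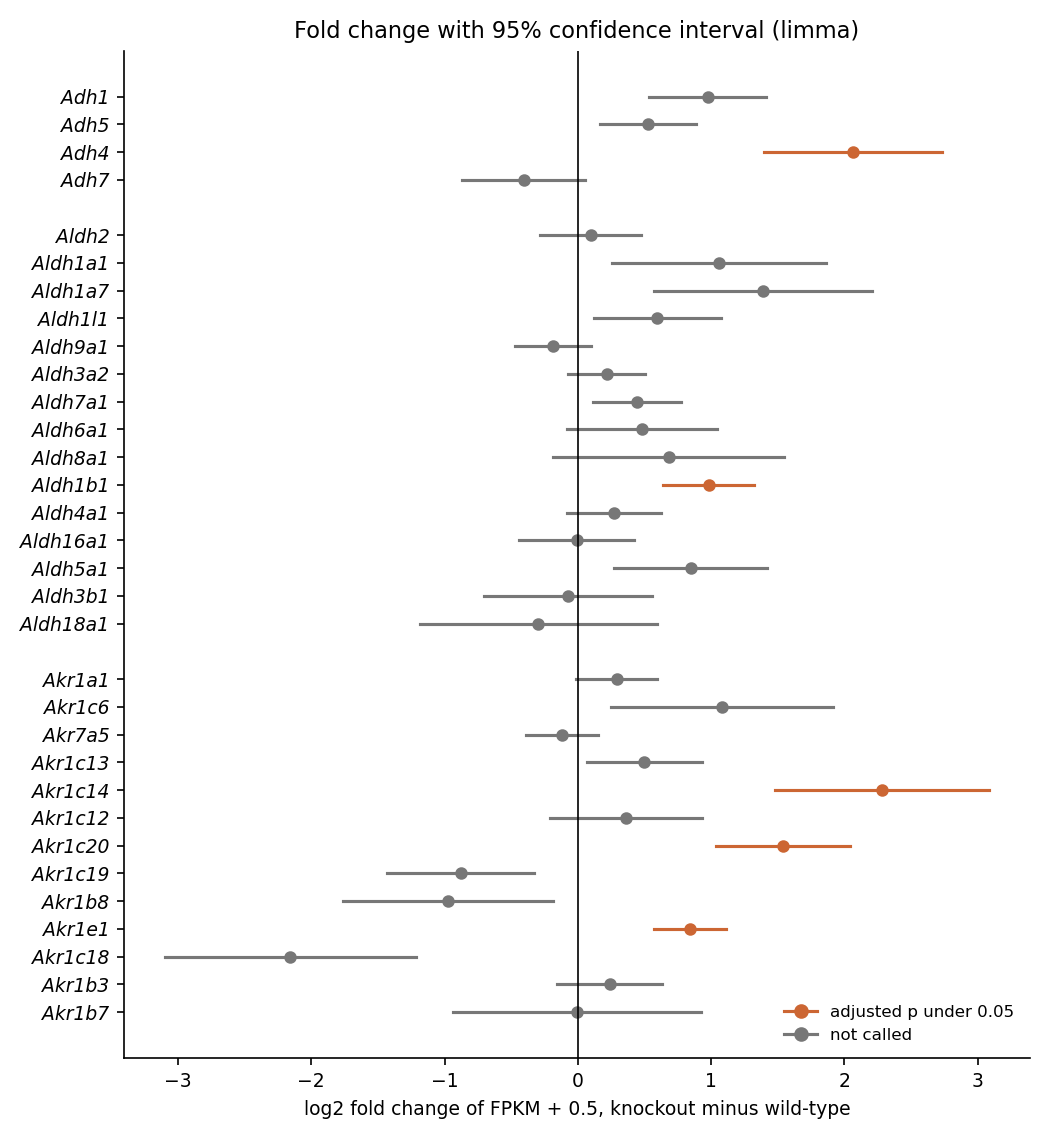
Log2 fold change of the 32 tested members (points) with 95% confidence intervals from limma (lines), knockout minus WT on the scale log2(FPKM + 0.5). The 5 called members are orange; the interval of Aldh2 spans 0, and that of Akr1c18 lies wholly below 0 although its adjusted p was 0.0501.

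The aldo-keto reductases held both the largest rise and the largest difference in the other direction among the tested members. Akr1c14, a hydroxysteroid dehydrogenase of rodent liver, measured 8.07 and 12.9 FPKM in WT against 63.3 and 41.9 FPKM in knockout pools, from 442, 655, 3655 and 2328 reads. Knockout replicate 1 was the highest library, and both knockout pools were far above both WT pools. WT averaged 10.5 ± 3.39 FPKM and the knockout 52.6 ± 15.1 FPKM, which is 2.28 on the log2 scale (SE 0.30, 95% confidence interval 1.48 to 3.08, limma adjusted p = 0.0383). Its call held without knockout replicate 2 (limma adjusted p = 0.0462) and was lost without WT replicate 1 (0.0832), WT replicate 2 (0.0643) or knockout replicate 1 (0.0915), with log2 fold changes of 1.96 to 2.60.

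Akr1c20 also rose. Its level was 11.4 and 16.01 FPKM in WT and 38.1 and 42.5 FPKM in knockout pools, and the groups were far apart. WT averaged 13.7 ± 3.27 FPKM and the knockout 40.3 ± 3.16 FPKM, which is 1.54 on the log2 scale (SE 0.19, limma adjusted p = 0.0350). The call was lost without any one pool, at limma adjusted p from 0.0643 (without WT replicate 2) to 0.0915 (without knockout replicate 1). Akr1c6, a liver hydroxysteroid dehydrogenase whose coding sequence is 92.3% identical to that of Akr1c20, was at 33.7 and 63.5 FPKM in WT and at 97.1 and 99.99 FPKM in knockout pools (log2 fold change 1.08, limma adjusted p = 0.120). WT replicate 1 was again the lowest library, and the log2 fold change of Akr1c6 was 0.63 without it and 1.53 without WT replicate 2. The longest exact run shared by Akr1c20 and Akr1c6 is 65 bases, so some reads could be assigned to either.

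Akr1e1, which reduces anhydrofructose, rose from a low level with little spread. Its level was 4.18 and 4.37 FPKM in WT and 7.95 and 8.16 FPKM in knockout pools, from 257, 250, 516 and 509 reads. Knockout exceeded WT by 0.84 on the log2 scale (SE 0.10, 95% confidence interval 0.57 to 1.11, limma adjusted p = 0.0350). The change was smaller than that of Adh4 or Akr1c14 but the replicates of each group were nearly alike. Leaving out 1 pool at a time gave 0.81 to 0.87, and the call was lost each time, at limma adjusted p from 0.0890 (without WT replicate 2) to 0.126 (without knockout replicate 1).

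Akr1c18, Akr1c19 and Akr1b8, which are named because of their values, lay below WT in both knockout pools. So did Akr7a5, which makes 4 of 13 tested aldo-keto reductases, or 30.8%, against 29.9% of all tested genes. Akr1c18 encodes the hydroxysteroid dehydrogenase that inactivates progesterone. Its level was 8.82 and 6.06 FPKM in WT and 0.790 and 1.88 FPKM in knockout pools, from 180, 115, 17 and 39 reads. The difference was -2.16 on the log2 scale (SE 0.36, 95% confidence interval -3.10 to -1.22), and the limma adjusted p of 0.0501 fell just outside the threshold. In 7 of 15 alternatives Akr1c18 passed as lower, with limma adjusted p from 0.0282 (protein-coding genes only) to 0.141 over the alternatives. Among the 7 is a crossed replicate pairing that was chosen after seeing the data. Akr1c19 was at 14.8 and 18.8 FPKM in WT and at 10.4 and 7.49 FPKM in knockout pools (log2 fold change -0.88, limma adjusted p = 0.0863). Akr1b8, an aldose reductase-like enzyme, was at 11.2 and 8.23 FPKM in WT and at 3.48 and 6.15 FPKM in knockout pools (log2 fold change -0.97, limma adjusted p = 0.130). The neutrophil and cholangiocyte sums given above were lower in the same knockout pools. Markers of sinusoidal endothelium summed to 67.4 and 65.6 FPKM in WT and to 50.8 and 51.2 FPKM in knockout pools. The sums of Kupffer cell and of stellate cell markers overlapped between the groups. Whether any of these cell types bears on Akr1c18, Akr1c19 or Akr1b8 was not tested.

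The other aldo-keto reductases were not called. Akr1a1, the general aldehyde reductase that also serves ascorbate synthesis in mice, was the most abundant of the family, at 109 and 117 FPKM in WT and 137 and 139 FPKM in knockout pools (log2 fold change 0.29, limma adjusted p = 0.194). Akr7a5, which reduces aflatoxin dialdehyde and succinic semialdehyde, was at 56.8 and 58.2 FPKM in WT and 52.8 and 53.3 FPKM in knockout pools (log2 fold change -0.12, 95% confidence interval -0.39 to 0.15). Akr1b3, the aldose reductase, was at 2.15 and 1.83 FPKM in WT and 2.45 and 2.42 FPKM in knockout pools. Akr1b7 was at 1.52 and 0.645 FPKM in WT and 1.18 and 0.865 FPKM in knockout pools from 13 to 33 reads, too few to set a direction, and its sign changed in 5 of 14 alternatives. Akr1c12 and Akr1c13 share 96.2% of their coding bases, with an exact run of 228 bases, and are best read together. Their sum was 53.6 and 58.1 FPKM in WT and 88.6 and 64.7 FPKM in knockout pools. Akr1b10 and Akr1c21 stayed below the filter, and Akr1cl had 0 reads in all libraries, which allows at most 0.0400 to 0.0453 FPKM.

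The Akr1c genes and Akr1e1 lie within 560.2 kb of chromosome 13 (4049011 to 4609174). In chromosomal order the tested members are Akr1c14, Akr1c18, Akr1c13, Akr1c19, Akr1c12, Akr1c6, Akr1c20 and Akr1e1. Their log2 fold changes in that order were 2.28, -2.16, 0.50, -0.88, 0.36, 1.08, 1.54 and 0.84. Akr1c14 (ENSMUSG00000033715, 4049011 to 4090688, plus strand) and Akr1c18 (ENSMUSG00000021214, 4132615 to 4150654, minus strand) are neighbours. The ratio of Akr1c14 to Akr1c18 was 0.915 and 2.12 in WT pools and 80.1 and 22.2 in knockout pools. The coding sequences of these neighbours are 75.95% identical, with a longest exact run of 48 bases. Summed over the 9 Akr1c members, including Akr1cl on chromosome 1, the level was 130.5 and 175 FPKM in WT and 299 and 259 FPKM in knockout pools. The Akr1b genes on chromosome 6 summed to 15.4 and 11.3 FPKM in WT and to 7.86 and 10.3 FPKM in knockout pools.

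The bases upstream of the transcription start are shown for Adh4, Aldh1b1 and Akr1c14, which rose, and for Akr1c18, the neighbour of Akr1c14 with the opposite sign. Sequences are from RefSeq's GRCm38.p6 starts, 5′ to 3′ on the strand of the gene, and are cut short where an annotated GENCODE exon of the gene begins. The RefSeq start of Akr1c14 lies inside the longer GENCODE span of that gene given above. Capitals mark the half-site of many nuclear receptors, with the letters AGGTCA, and the CCAAT box, each on either strand.
Adh4 (chr3:138415247-138415465, plus strand): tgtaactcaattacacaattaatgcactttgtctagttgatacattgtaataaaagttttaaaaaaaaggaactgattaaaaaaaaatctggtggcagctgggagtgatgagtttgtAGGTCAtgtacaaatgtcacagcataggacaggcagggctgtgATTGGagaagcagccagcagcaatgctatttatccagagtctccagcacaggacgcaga
Aldh1b1 (chr4:45798772-45799021, plus strand): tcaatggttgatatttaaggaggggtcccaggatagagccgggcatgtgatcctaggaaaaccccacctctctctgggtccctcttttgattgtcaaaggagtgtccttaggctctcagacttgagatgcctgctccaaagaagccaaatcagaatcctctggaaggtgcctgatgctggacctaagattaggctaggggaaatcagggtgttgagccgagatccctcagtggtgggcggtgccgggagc
Akr1c14 (chr13:4059341-4059540, plus strand): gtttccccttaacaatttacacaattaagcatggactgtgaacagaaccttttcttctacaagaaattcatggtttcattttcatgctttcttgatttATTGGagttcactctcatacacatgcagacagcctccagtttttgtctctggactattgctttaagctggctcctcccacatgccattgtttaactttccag
Akr1c18 (chr13:4150655-4150896, minus strand): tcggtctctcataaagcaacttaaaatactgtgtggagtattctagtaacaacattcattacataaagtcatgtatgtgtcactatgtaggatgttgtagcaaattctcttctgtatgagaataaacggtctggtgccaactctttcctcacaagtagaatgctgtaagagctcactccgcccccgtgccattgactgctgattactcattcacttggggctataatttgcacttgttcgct

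Adh4 holds the nuclear receptor half-site 133 bases before its start and again 11 bases before it, past the printed stretch, and the CCAAT box 90 bases before it. Akr1c14 holds the CCAAT box 152 bases before its start, and the windows of Aldh1b1 and Akr1c18 hold none of the motifs searched. The search covered the 250 bases before each start for 37 starts of 34 matched members, on both strands except for the TATA box. The nuclear receptor half-site was in 18.9% of these windows and in 14.0% of 32851 windows of all RefSeq genes. The CCAAT box was in 54.1% of the members' windows and in 33.8% of all. The core of the antioxidant response element bound by NRF2, searched as TGACNNNGC, was in 10.8% and 10.2%, and it can overlap the nuclear receptor half-site read from the other strand. The AP-1 site, searched as TGANTCA, was in 5.41% and 6.75%. The TATA box, searched as TATAAA, was in 10.8% of the members' windows and in 7.59% of all windows. The half-site of HNF1, searched as GTTAAT, was in 5.41% and 6.43%. These shares describe letters in a window and not bound sites.

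A list of 71 genes that handle the same alcohols, aldehydes, ketones and retinoids, or act next to aldehyde dehydrogenases, was set beside the members. Of 63 tested, 8 rose and 2 fell, with a median log2 fold change of 0.29. Over all tested genes 1.60% were called higher and 3.14% lower, with a median of 0.01. The reductases and dehydrogenases of carbonyls and steroids held 4 of the rises. Cbr3, a carbonyl reductase, rose from 8.18 ± 1.58 to 43.3 ± 5.62 FPKM (limma adjusted p = 0.0258), and Ptgr1, which reduces alkenals and leukotrienes, from 1.63 ± 0.464 to 7.45 ± 1.72 FPKM (0.0350). Ptgr2, which reduces keto-prostaglandins, and Hsd17b2, which oxidises estradiol and testosterone, rose with log2 fold changes of 0.75 and 1.03. Hsd11b1, which regenerates active glucocorticoid, fell from 63.9 ± 6.91 to 29.6 ± 2.57 FPKM (limma adjusted p = 0.0350). Sord, which oxidises sorbitol made by aldose reductase, rose from 198 and 202 FPKM in WT to 436 and 402 FPKM in knockout pools (limma adjusted p = 0.0342). The other carbonyl reductase of the rule for named genes, Cbr1, was at 85.7 and 136 FPKM in WT and at 168 and 164 FPKM in knockout pools (limma adjusted p = 0.199), and Nqo1, a quinone reductase, was at 27.04 and 34.2 FPKM in WT and at 54.0 and 61.1 FPKM in knockout pools (0.0539).

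In the group of oxidising enzymes 1 of 7 tested genes rose. This was Cyp26a1, which degrades retinoic acid and went from 1.31 ± 0.128 to 6.60 ± 1.69 FPKM (limma adjusted p = 0.0310). In the retinoid group Bco1, which cleaves beta-carotene to retinal, fell from 31.5 ± 4.83 to 6.67 ± 0.263 FPKM (limma adjusted p = 0.0258). Of the 13 tested genes of the retinoid group, which leaves out Cyp26a1, 0 were called higher and 1 lower. At an unadjusted limma p under 0.05, 1 was above and 3 were below WT. Of all 11900 tested genes, 1507 were above and 1719 below WT at that threshold. The ethanol-oxidising Cyp2e1, which also activates acetaminophen, was at 1156 and 1579 FPKM in WT and at 1488 and 1506 FPKM in knockout pools, and the groups overlapped. Catalase (Cat), which oxidises ethanol with hydrogen peroxide, was at 218 and 301 FPKM in WT and at 561 and 498.5 FPKM in knockout pools (log2 fold change 1.04, limma adjusted p = 0.0644).

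Among enzymes next to the aldehyde dehydrogenases, Chdh and Hibch rose. Chdh makes betaine aldehyde from choline, and it rose from 8.51 ± 0.407 to 39.7 ± 4.76 FPKM (limma adjusted p = 0.0258). Hibch, which acts upstream of Aldh6a1 in valine breakdown, rose from 6.35 and 5.51 FPKM in WT to 11.02 and 10.6 FPKM in knockout pools (limma adjusted p = 0.0426). Acss2, which activates the acetate that aldehyde dehydrogenases make, was at 2.45 and 2.94 FPKM in WT and at 4.85 and 6.63 FPKM in knockout pools (limma adjusted p = 0.0650). Aox1, an aldehyde oxidase, was at 11.5 and 16.3 FPKM in WT and at 18.3 and 16.96 FPKM in knockout pools (limma adjusted p = 0.302). The number of rises in this list was 1 without WT replicate 1, 0 without WT replicate 2, 0 without knockout replicate 1 and 3 without knockout replicate 2.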

How the data were processed

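The authors deposited a single table that lists FPKM for each gene beside its length, biotype and position, per the file headers. The submitters' processing notes name HISAT2 2.0.5 and the builds mm10 and GRCm38.p6. The sources used here name neither the program that counted the reads nor its annotation release. Columns were matched to samples by genotype and replicate number, and 0 columns were left out. FPKM times the gene length, listed as another quantity in the deposited table, was a whole multiple of 1 step per library for 100.0% of values above 0, within 0.01 read, which gave whole reads for the limma voom alternative. The library totals implied by these steps, which were computed here, were 0.943 to 1.05 times the summed reads.

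Genes averaging 1 FPKM or more over the 4 libraries were fitted on the scale log2(FPKM + 0.5), using R 4.3.3 and limma 3.58.1 (mean-variance trend, 2 residual and 2.59 prior degrees of freedom). The procedure was tested on simulated data. Members, gene lists and tests were chosen with earlier results of these data known. Named members were those called, the 3 most abundant and the 2 with the smallest p of each family, and 12 set by symbol; other members named were chosen after their values were seen. Coding identity was computed with Biopython 1.88 from GENCODE M21 transcripts. Alternatives were the pseudocount, filters, scaling, trend, voom, protein-coding genes only, a replicate block and leaving out each pool. Protein sequences were not used here.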

Additional observations from a re-analysis of the deposited data

How the results depend on the processing

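Leaving out 1 pool at a time left 0 to 1 members called higher and 0 to 1 lower, 0 to 51 of all genes higher and 0 to 183 lower, and 0 to 3 of the related-gene list higher and 0 to 1 lower. These fits leave 1 group with a single pool, assumed to vary like the other group. With no filter on low values 0 genes were called in any set by limma. Under an unadjusted limma p of 0.05 were 19 of 41 members and 4388 of 26643 genes. Without the filter both the number of tests and the fitted trend differ. Without the mean-variance trend 2 members were higher (all genes 80 higher, 200 lower; related genes 5 and 1). With limma voom 9 members were higher and 2 lower (all genes 440 higher, 469 lower; related genes 15). Among protein-coding genes only, 408 were higher and 606 lower, with 1 member lower and 13 related genes higher; with at least 50 reads 322 genes were higher, with 1 member lower and 13 related genes higher. A pseudocount of 1 and median-of-ratios scaling each gave 1 member lower. The member lower in each of these was Akr1c18, joined by Akr1c19 with voom. The causes of these differences between settings were not tested. Of the tested members, 30 to 32 kept their sign under each alternative, apart from those with fewer members tested, where all kept it. Those that changed sign somewhere were Akr1b7, Aldh16a1, Aldh3b1 and Aldh18a1. The log2 fold change of Akr1b7, -0.01 as reported, turned to 0.016 with a pseudocount of 0.1, to 0.029 after rescaling to listed reads and to 0.093 with limma voom, and ran from -0.42 to 0.40 over the pools left out.

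Differences between replicates 1 and 2 correlated at -0.14 across genes between genotypes. With a single such difference per genotype, this cannot show whether replicate numbers pair the samples. A replicate block gave 74 genes higher and 236 lower, 3 members higher (Adh4, Akr1c14 and Akr1c20) and, in the related list, 4 higher and 1 lower. A crossed pairing, chosen after seeing the data, gave 213 genes higher and 339 lower and 2 members lower. Akr1b7 rested on 13 to 33 reads per library, and the 11 members below the filter were not tested.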

Other observations

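Of 14 members with a gene on the opposite strand, 2 abundant ones are described first, whose partners stood higher in both knockout pools. The same held for 31.6% of all tested genes. Gm42879, opposite Aldh2, and 9330162012Rik, opposite Aldh5a1, also stood higher in both, below 1 FPKM. Lower in both were 0610031O16Rik opposite Adh7, D10Wsu102e opposite Aldh1l2 and 4932702P03Rik opposite Aldh5a1. Gm16559, antisense to Adh1, was at 0.908 and 1.06 FPKM in WT and at 3.66 and 3.06 FPKM in knockout pools, from 24, 26, 102 and 82 reads (log2 fold change 1.38, limma adjusted p = 0.0350). Gm15756, antisense to Aldh1l1, had 1 and 3 reads in WT and 19 and 16 reads in knockout pools and lay below the filter. Phax, on the opposite strand of Aldh7a1, and Pih1d1, on that of Aldh16a1, had log2 fold changes of 0.03 and -0.07 with limma adjusted p of 0.892 and 0.756. Since strand marking is not stated, reads of each gene and its partner cannot be told apart.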
